A study of Mus musculus with 12 samples.

Results

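The cysteine cathepsins are proteases of the endosome and lysosome, and the cystatins are their inhibitors. The 10 genes Ctsb, Ctsl, Ctss, Ctsh, Ctsc, Ctsw, Ctsz, Lgmn, Cst3 and Cst7 were followed on arrays of regulatory T cells (Tregs). Every probe set annotated to 1 of the 10 genes was taken, which gave 20 probe sets. They stand among 45037 probe sets other than controls, which name 18193 genes. None of the 20 was annotated to more than 1 gene, and all 20 passed the filter on low signal.

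The 12 Affymetrix mouse arrays measured RNA of Tregs purified by flow cytometry, used fresh and untreated. The 4 genotypes had 3 arrays each: Ebi3 -/- (Ebi3_KO), Il10 -/- (Il10_KO), Ebi3 -/- Il10 -/- (DKO) and wild type (WT). Ebi3 is a chain of the cytokines IL-27 and IL-35, Il10 encodes IL-10, and Tregs use IL-10 and IL-35 to restrain other immune cells. The labels also name 3 batches, each with 1 array of every genotype, and the replicate number of an array is its batch. They name no strain, age, sex, allele or part of the gene removed, and nothing in them says that replicates are separate animals. P-values therefore measure the spread between these samples, which may be technical.

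Cysteine cathepsins are made as inactive precursors and become active in the acid compartments where cells digest proteins. In antigen-presenting cells they trim the invariant chain from MHC class II molecules and cut antigens into peptides, while in cytotoxic lymphocytes and neutrophils they activate the serine proteases stored in granules. Cystatin C is secreted and blocks cysteine proteases outside and inside cells. Cystatin F, the product of Cst7, is made by immune cells and is carried to lysosomes, where it restrains the cathepsins.

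The labelled genotypes and cell type were checked first. The Ebi3 probe set read 3.0 to 39.5 in Ebi3_KO, 1062.5 to 2057.3 in Il10_KO and 15.2 to 72.5 in DKO, against 1159.0 to 1727.8 in WT. The Il10 probe set read 574.4 to 2384.6 in Ebi3_KO, 1027.8 to 2038.2 in Il10_KO and 1016.7 to 2639.6 in DKO, against 184.5 to 2939.8 in WT, and since the labels give no deleted part it checks nothing here. Foxp3, the defining transcription factor of Tregs, read 4945.3 to 7955.0 over the 12 arrays. The 4 arrays of batch 3 stood apart in markers of other cells: the summed signal of macrophage and monocyte markers was 24254.8 to 43688.1 there and at most 4919.6 on the other arrays. In bulk samples fewer cells of a type and less RNA per cell cannot be told apart.

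Signals are MAS5 values scaled to 1 trimmed mean on every array, and median signals lay between 59.3 and 89.1. Differences are on the scale log2(signal + 20), with their standard error (SE), and understate the change of dim probe sets. A probe set was called when its limma p-value, adjusted over 31235 tested probe sets, was under 0.05. Levels of different genes are not set against each other, because each probe set has its own brightness.

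**Figure D1:**
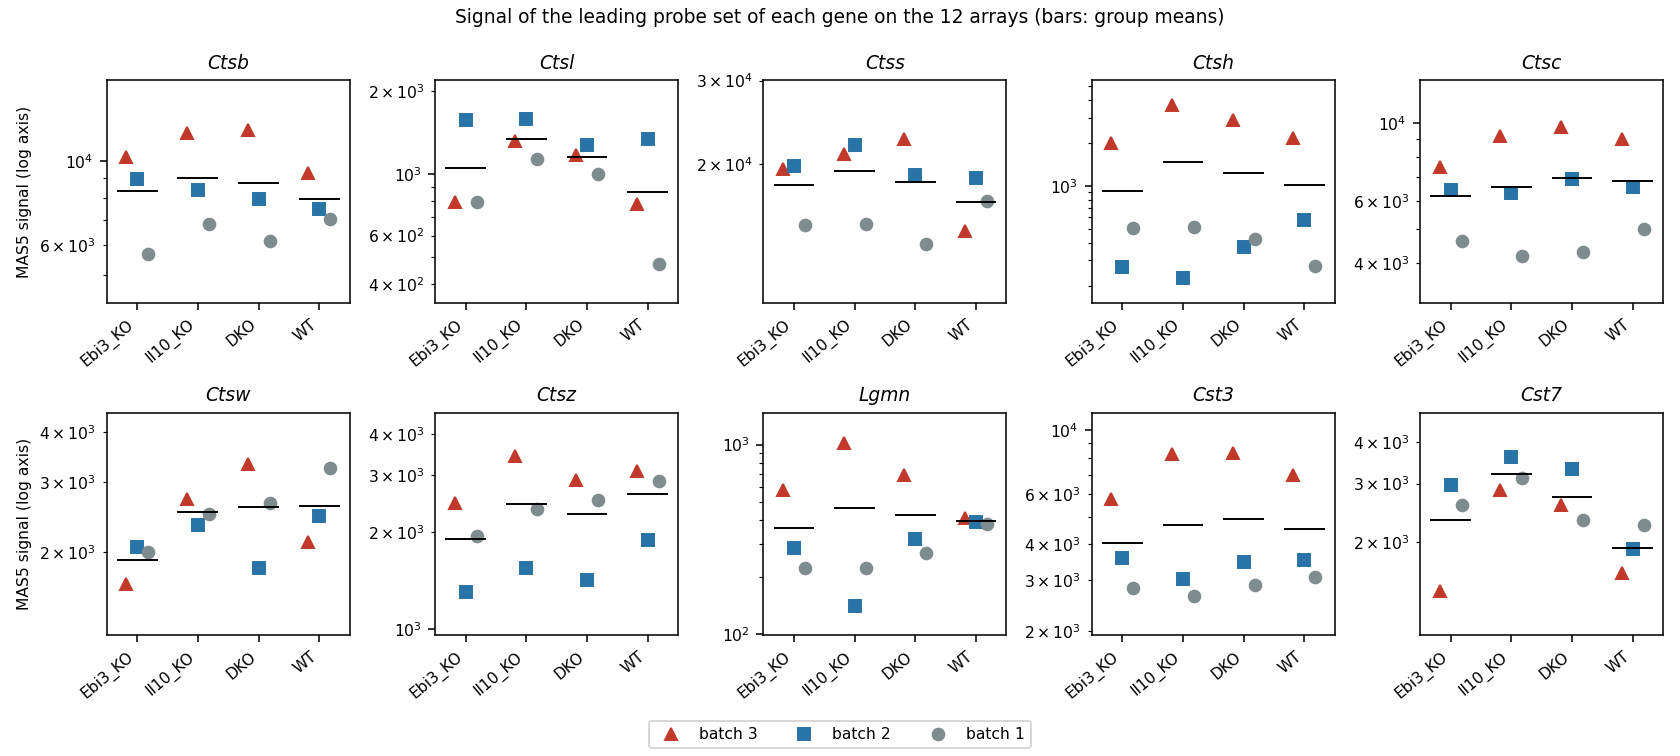
Each panel plots the MAS5 signal (log axis) of the brightest probe set of 1 gene on the 12 arrays, by genotype, with the batch shown by the marker and the group mean by a bar. For Ctsh and Cst3 the 4 triangles of batch 3 lie above all other arrays, while for Cst7 the 3 Il10_KO arrays lie above the 3 WT arrays.

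Cathepsin H and cystatin C set batch 3 apart from the rest of the arrays. The genes Ctsh, Cst3, Lgmn, Ctsc, Ctsb and Ctsz had probe sets that were called higher in batch 3 than in batch 2, by 0.40 to 2.87 on the log2 scale. With genotype in the model 12 of 20 probe sets were called higher and 1 lower in batch 3 minus batch 2. Over all probe sets tested 11.0% were called higher and 9.98% lower, 21.0% in either direction. In batch 3 minus batch 1 these 6 genes had 9 probe sets called higher and 0 called lower, against 10.2% higher and 18.5% lower over all probe sets (28.7% in either direction). The median over the 20 probe sets was 0.54 in batch 3 minus batch 2 and 0.60 in batch 3 minus batch 1, beside medians of -0.01 and -0.16 over all probe sets. No overlap between the arrays, with batch 3 higher, was seen for 12 of 20 probe sets against batch 2 (12.4% of all probe sets) and 9 of 20 against batch 1 (10.5%). The medians over all probe sets became 0.00 and 0.04 under quantile normalization, and the member medians 0.53 and 0.60.

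Ctsh encodes cathepsin H, an aminopeptidase of lysosomes. In batch 3 its main probe set (1418365_at) read 1988.1 in Ebi3_KO, 3672.0 in Il10_KO, 2889.7 in DKO and 2168.6 in WT. In batch 2 it read 270.1 in Ebi3_KO, 225.7 in Il10_KO, 370.7 in DKO and 578.5 in WT, and in batch 1 508.0, 513.3, 421.3 and 273.3 in the same order. Every array of batch 3 lay above every other array, whatever the genotype. The difference was 2.87 ± 0.29 against batch 2 (adjusted p = 3.44e-05) and 2.58 ± 0.29 against batch 1 (adjusted p = 3.56e-05). The other Ctsh probe set (1443814_x_at) gave 2.09 ± 0.26 (adjusted p = 0.000136) and 2.04 ± 0.26 (adjusted p = 7.62e-05), and both moved together over the 12 arrays (r = 0.988, a description). In batch 3 minus batch 2 the difference was highest in Il10_KO, at 3.91, and lowest in WT, at 1.87.

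Cst3 encodes cystatin C, the general inhibitor of cysteine cathepsins. It read 5748.4 in Ebi3_KO, 8290.6 in Il10_KO, 8360.5 in DKO and 6986.9 in WT in batch 3. In batch 2 it read 3596.6, 3027.0, 3462.5 and 3515.1 in that order of genotypes, and in batch 1 2814.1, 2649.1, 2897.3 and 3076.8. The batch 3 arrays did not overlap with the others, while the 8 arrays of batches 2 and 1 lay between 2649.1 and 3596.6. The difference was 1.09 ± 0.13 against batch 2 (adjusted p = 0.000106) and 1.34 ± 0.13 against batch 1 (adjusted p = 1.36e-05). A protease and its inhibitor were thus high on the same 4 arrays.

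Lgmn encodes legumain, an asparaginyl endopeptidase that cuts antigens and processes other cathepsins. In batch 3 it read 573.9 in Ebi3_KO, 1024.9 in Il10_KO, 691.1 in DKO and 408.4 in WT. In batches 2 and 1 it lay between 140.8, in Il10_KO of batch 2, and 391.2, in WT of batch 2. The WT arrays spanned 408.4, 391.2 and 380.2 in batches 3, 2 and 1, and batch 3 minus batch 2 came to 2.70 in Il10_KO against 0.06 in WT. The fitted difference was 1.20 ± 0.31 against batch 2 (adjusted p = 0.0150) and 1.20 ± 0.31 against batch 1 (adjusted p = 0.0111). The first of these calls was lost without Il10_KO replicate 2 (0.85, adjusted p = 0.0611) and without Il10_KO replicate 3 (0.80, adjusted p = 0.061). The call against batch 1 held with any single array left out.

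Ctsc encodes cathepsin C, the dipeptidyl peptidase that activates granzymes and the serine proteases of neutrophils. Its main probe set (1416382_at) averaged 8860.4 ± 956 in batch 3, 6567.1 ± 258 in batch 2 and 4526.8 ± 365 in batch 1 (SD, 4 arrays each). The batches did not overlap, with 7505.2 to 9739.7 in batch 3, 6316.1 to 6922.5 in batch 2 and 4182.2 to 5004.2 in batch 1. It was called in all 3 comparisons, by 0.43 ± 0.11 in batch 3 minus batch 2, 0.96 ± 0.11 in batch 3 minus batch 1 and 0.54 ± 0.11 in batch 2 minus batch 1. The first call was lost without DKO replicate 3 (0.38, adjusted p = 0.0514). The other Ctsc probe sets were dim, at 47.6 to 162.2 (1437939_s_at) and 45.6 to 139.7 (1446834_at), and were called in no comparison.

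Ctsb encodes cathepsin B, an endopeptidase that can also remove dipeptides from a protein's end. Its brightest probe set (1417490_at) lay at 9318.2 to 12100.6 in batch 3, 7481.1 to 8982.2 in batch 2 and 5699.9 to 7038.2 in batch 1, with no overlap. It was higher in batch 3 by 0.40 ± 0.11 against batch 2 (adjusted p = 0.0233), and by 0.76 ± 0.11 against batch 1 (adjusted p = 0.000312). The call against batch 2 was lost without replicate 2 of Il10_KO, DKO or WT and without replicate 3 of Ebi3_KO, Il10_KO or DKO (0.33 to 0.42, adjusted p up to 0.0932). The probe sets of Ctsb disagreed over batch 2 minus batch 1: 1417490_at was higher by 0.35 ± 0.11 (adjusted p = 0.0350) and 1417492_at by 0.61 ± 0.15, whereas 1448732_at fell by 1.05 ± 0.15 (adjusted p = 0.000292). On the arrays, 1448732_at read 660.1 to 927.1 in batch 2, against 1264.1 to 1895.4 in batch 1. Batch 2 minus batch 1 thus has no single direction for Ctsb, whereas 4 of its 5 probe sets were called higher in batch 3 than in batch 2. Under quantile normalization 1417490_at differed by 0.10 in batch 2 minus batch 1 and was not called (adjusted p = 0.511), nor was it without replicate 1 or 2 of any knockout or WT replicate 2 (0.27 to 0.38, adjusted p up to 0.147).

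Ctsz encodes cathepsin Z, a carboxypeptidase. Its brightest probe set (1417868_a_at) read 2454.4 to 3417.5 in batch 3, 1303.7 to 1883.0 in batch 2 and 1942.1 to 2877.5 in batch 1. Batch 2 was low on every genotype for this gene. The difference was 0.94 ± 0.12 in batch 3 minus batch 2 (adjusted p = 0.000165) and -0.65 ± 0.12 in batch 2 minus batch 1 (adjusted p = 0.00156), and the other 2 probe sets were called in the same directions. In batch 3 minus batch 1 only 1417870_x_at was called (0.54 ± 0.17, adjusted p = 0.0257); this call was lost without replicate 1 or 3 of Ebi3_KO or Il10_KO or DKO replicate 3 (0.37 to 0.58, adjusted p up to 0.130). The batch 2 minus batch 1 call of 1417870_x_at was lost without DKO replicate 1 (-0.56, adjusted p = 0.0523).

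**Figure D2:**
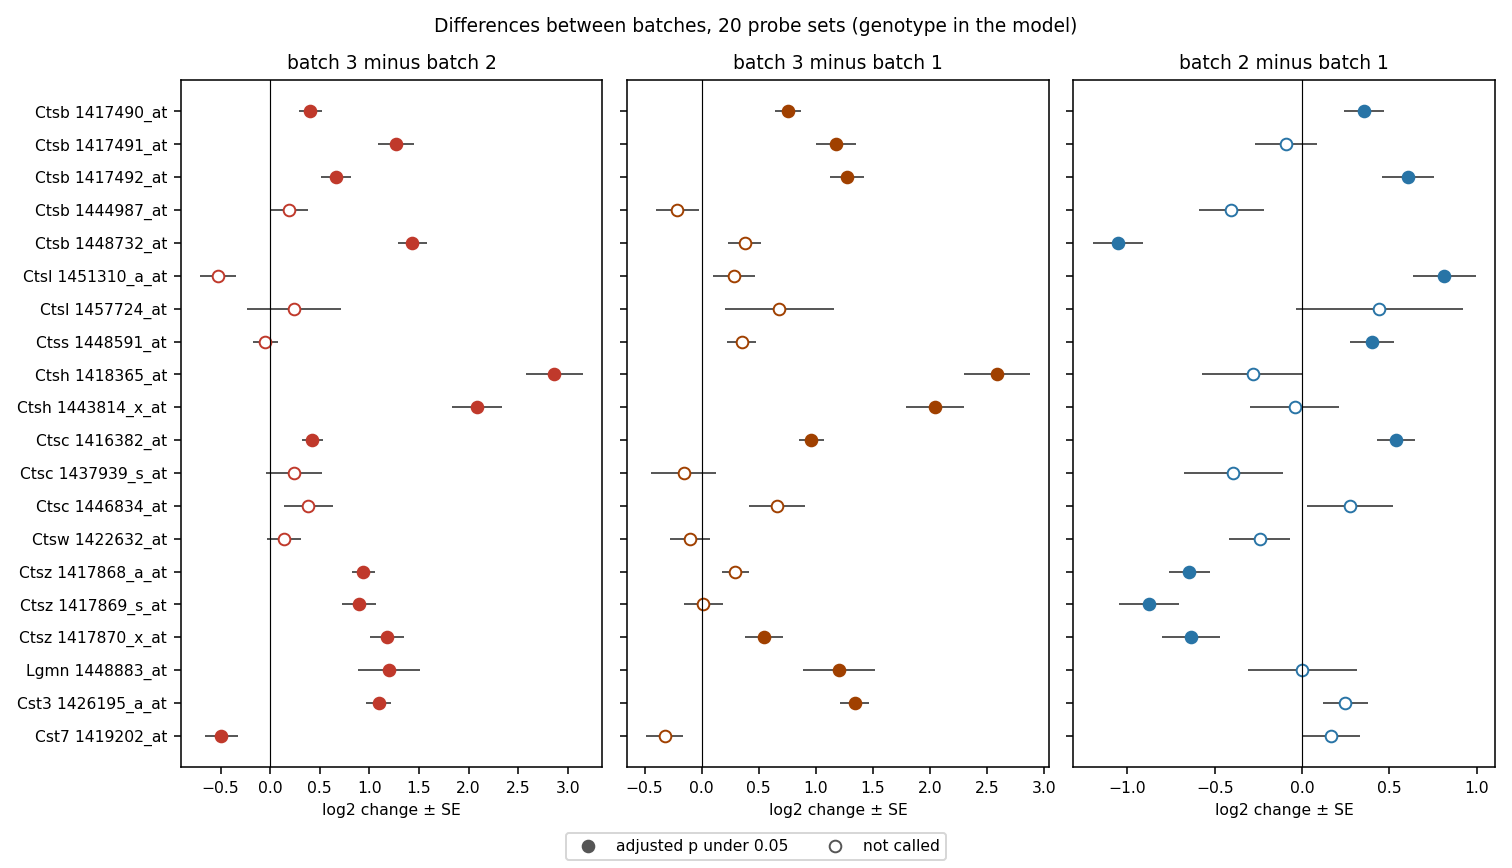
Log2 differences between batches (x axis, ± SE, genotype in the model) for the 20 probe sets (rows); filled points passed an adjusted p of 0.05. In batch 3 minus batch 2, 12 filled points lie right of 0, led by Ctsh at 2.87, and 1, Cst7 at -0.49, lies left of it.

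Not every member followed. Ctss encodes cathepsin S, which removes the invariant chain in antigen-presenting cells. It read 14410.0 to 22526.8 in batch 3, 18673.4 to 21885.7 in batch 2 and 13535.2 to 16716.0 in batch 1, so batches 3 and 2 overlapped. The difference was -0.05 ± 0.13 in batch 3 minus batch 2 and 0.40 ± 0.13 in batch 2 minus batch 1 (adjusted p = 0.0296). In batch 2 minus batch 1 it was 0.18 under quantile normalization (adjusted p = 0.330), and it was not called without replicate 1 or 2 of Ebi3_KO or Il10_KO, DKO replicate 1 or WT replicate 2 (0.32 to 0.40, adjusted p up to 0.117). Ctsw encodes cathepsin W, known from cytotoxic T and NK cells. It lay at 1667.6 to 3326.3 in batch 3, 1828.9 to 2469.8 in batch 2 and 1999.9 to 3258.9 in batch 1 and was called in no batch comparison.

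Cst7 alone was called lower in batch 3 than in batch 2, and Ctsl was called in another comparison. Ctsl encodes cathepsin L, an endopeptidase that removes the invariant chain in thymic epithelium. Its main probe set (1451310_a_at) averaged 1017.9 ± 271 in batch 3, 1445.9 ± 158 in batch 2 and 851.8 ± 289 in batch 1 (SD, 4 arrays each). The difference was called in batch 2 minus batch 1 (0.81 ± 0.18, adjusted p = 0.00499) and not in batch 3 minus batch 2 (-0.53 ± 0.18, adjusted p = 0.0546). Cst7 averaged 2122.2 ± 714 in batch 3, 2945.2 ± 741 in batch 2 and 2568.6 ± 388 in batch 1. Its difference of -0.49 ± 0.16 in batch 3 minus batch 2 was barely called (adjusted p = 0.0461), with values that overlapped between the batches. That call was lost without any replicate of Ebi3_KO or Il10_KO, DKO replicate 2 or WT replicate 3, where the difference lay between -0.56 and -0.31 (adjusted p up to 0.199).

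In batch 2 minus batch 1 5 of the 20 probe sets, of Ctsb, Ctsc, Ctsl and Ctss, were called higher. Over all probe sets 9.32% were called higher and 18.8% lower, 28.1% in either direction. Another 4 were called lower, 3 of Ctsz and 1 of Ctsb. Batch 2 lay above batch 1 without overlap for 5 of 20 probe sets (9.56% of all probe sets) and below it for 5 of 20 (18.4%). The median over the 20 was -0.02, beside -0.18 over all probe sets (0.12 and 0.02 under quantile normalization). The share of calls that were higher, over all probe sets, was 33.2% in batch 2 minus batch 1 and 35.5% in batch 3 minus batch 1, against 50.6% and 52.1% under quantile normalization.

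Markers of other cell types moved with the batch. The macrophage and monocyte markers, 9 measured of 10 listed, had 8 of 8 tested members called higher in batch 3 than in either other batch. Their mean log2 level lay at 9.87 to 10.71 in batch 3, 7.44 to 8.06 in batch 2 and 7.60 to 8.39 in batch 1. Their summed signal, given above for batch 3, was 2594.7 to 4919.6 in batch 2 and 3343.6 to 4500.8 in batch 1. Lyz2, the lysozyme of myeloid cells, read 9474.4 to 17798.1 in batch 3 and 551.3 to 1578.4 on the other 8 arrays. Csf1r, the receptor for the macrophage growth factor, read 6258.5 to 16455.6 in batch 3 and at most 2284.9 elsewhere.

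Neutrophil markers were called higher in batch 3 than in either other batch for 7 of 8 members, with summed signals of 5209.0 to 16039.9 in batch 3, 1305.2 to 3827.8 in batch 2 and 1275.0 to 4789.4 in batch 1. The B cell markers had 5 of 6 tested members higher in batch 3 than in batch 2 and 4 of 6 lower in batch 2 than in batch 1. Their summed signals were 2727.2 to 8206.6, 869.1 to 2129.9 and 2195.7 to 4603.1 in batches 3, 2 and 1. Of the CD8 T and NK cell markers 4 of 7 were higher in batch 3 than in either other batch, with sums of 2198.6 to 3800.0, 821.0 to 1617.3 and 1087.4 to 1248.6. Dendritic cell markers had 3 of 7 called higher against batch 1 and 2 of 7 against batch 2, with Xcr1 (16.9 to 49.4), Siglech (6.2 to 128.7) and Zbtb46 (45.8 to 124.5) near background. Of the 8 Treg and CD4 T cell markers 5 were called lower in batch 3 than in batch 1, among them Il2ra, Ctla4 and Ikzf2, and 0 higher. Against batch 2, 2 were called lower in batch 3 and 1 higher. Whether these markers account for the cathepsin values was not tested.

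Ctsh followed the macrophage and monocyte markers over the 12 arrays with r = 0.983, and with r = 0.796 once the mean of each batch was removed. For Cst3 the values were 0.947 and 0.534, and for Lgmn 0.843 and 0.484. For Ctss they were 0.248 and -0.01, and for Cst7 -0.384 and 0.431. These correlations describe arrays that share batches, and carry no test. Other lists followed as closely: with batch means removed Ctsh correlated with the B cell markers at r = 0.793, and Cst3 with the neutrophil markers at r = 0.524 and the CD8 T and NK cell markers at r = 0.513. Lgmn, with batch means removed, followed the Treg and CD4 T cell markers (r = 0.676) and the lysosome biogenesis and sorting genes (r = 0.538) more closely than the macrophage and monocyte markers. Genes of a like pattern were ranked over the 12 arrays with batch means left in, so the batch steps are part of these values. Of 13899 gene symbols the one most like Ctsh was Pld4 (r = 0.990), followed by Fcer1g, a chain of Fc receptors (0.989), and Csf2rb, a chain of cytokine receptors (0.989). With batch means removed these were 0.917, 0.881 and 0.887. Cst3 was most like Rassf4 (0.986), Spic, a transcription factor of red pulp macrophages (0.979), and F13a1, a clotting factor chain (0.977). With batch means removed the Cst3 values were 0.74, 0.718 and 0.612. Ctsb was most like Grn, the gene of progranulin (0.956, or 0.648 with batch means removed). Ctsc was most like Asah1, the lysosomal acid ceramidase (0.973, or 0.842 with batch means removed). Cst7 was most like Mageh1 (0.920), Hsd11b2, an enzyme that inactivates glucocorticoids (0.915), and Dll1, a Notch ligand (0.898), and Ctsl most like Chst11, a sulfotransferase (0.927). For Ctss, Ctsw, Ctsz and Lgmn the first genes were Mief1 (0.959), Ggact (0.855), Imp3 (0.978) and Arl1 (0.932).

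**Figure D3:**
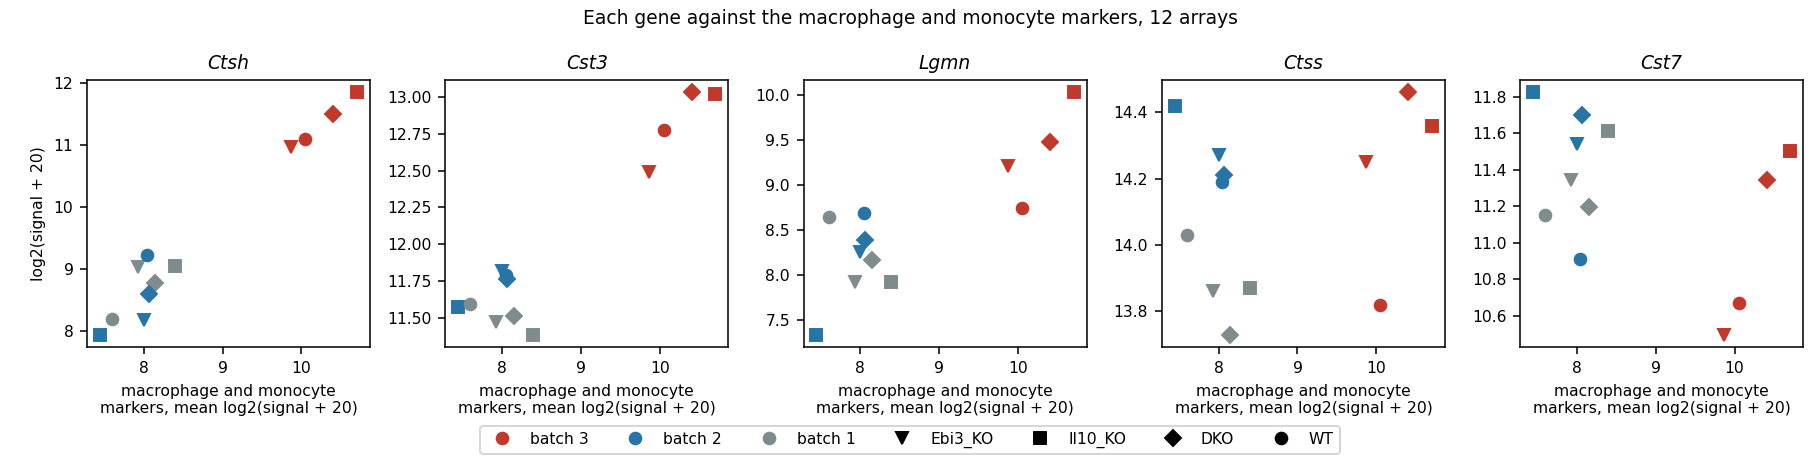
Each panel sets the level of 1 gene, as log2(signal + 20), against the mean level of the macrophage and monocyte markers on the same array, with batch by colour and genotype by shape. Ctsh and Cst3 are high on the 4 batch 3 arrays, whose marker means lie at 9.87 to 10.71; Ctss and Cst7 show no such step.

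Related genes from the lists were uneven. MHC class II genes, whose products the cathepsins serve, had 9 of 10 members called higher in batch 3 than in batch 2 and 6 of 10 against batch 1. Examples were Cd74, the invariant chain (1.97, adjusted p = 1.01e-05), and H2-Ab1, a class II chain (2.74, adjusted p = 4.08e-05), both against batch 2. Of 25 genes of lysosome biogenesis and sorting 8 rose and 1 fell in batch 3 minus batch 2, and 9 rose and 1 fell in batch 3 minus batch 1. Cd68, a lysosomal glycoprotein of macrophages, was higher by 2.83 in batch 3 minus batch 2 and Psap, the precursor of the saposins, by 1.39, while Gla, a lysosomal galactosidase, was the member called lower (-0.92 against batch 1).

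Among 6 lysosomal peptidases of other classes, Ctsa, a serine carboxypeptidase (0.54), and Ctsd, the aspartic cathepsin D (0.84), rose in batch 3 minus batch 2, and Tpp1, a serine tripeptidyl peptidase, fell by 0.79. Of the other cysteine cathepsins only Ctso was called in that comparison (0.63, adjusted p = 0.00593). Ctsf and Ctsk read at most 83.0 and 72.3 on the 12 arrays. Of 6 other protease inhibitors 3 rose there, namely Serpinb1a, Serpinb6a and Serpinb9, which inhibit serine proteases. Cstb, the intracellular cystatin B, rose in batch 2 minus batch 1 (0.58) and batch 3 minus batch 1 (0.63). Of 8 cytotoxic granule genes Gzma (2.65), Prf1 (0.89) and Nkg7 (1.06) rose and Srgn fell by 0.45 in batch 3 minus batch 2.

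The promoters of 7 members were in the table of RefSeq promoters (GRCm38.p6), as 8 windows of 300 bases that run from 250 before to 50 after the start of the gene. Both strands were searched for CACGTG, the E-box bound by the lysosomal regulators TFEB, TFE3 and MITF, and for GAGGAA, the core bound by PU.1, a factor of myeloid cells. CACGTG lay in windows of 2 of the 7 genes, Ctsl and Lgmn, and in 7.15% of all 32851 promoters. GAGGAA lay in windows of 3 of the 7, Cst3, Ctsc and Ctss, and in 28.3% of all promoters. The promoters of 4 genes are printed 5' to 3' on the strand of the gene because their genes parted between the batches or stand out below by genotype: Cst3 (chr2:148875463-148875762, minus strand), Ctss (chr3:95526536-95526835, plus strand), Ctsl (chr13:64370471-64370770, minus strand) and Cst7 (chr2:150570165-150570464, plus strand). Capitals mark a motif or its reverse complement.
Cst3: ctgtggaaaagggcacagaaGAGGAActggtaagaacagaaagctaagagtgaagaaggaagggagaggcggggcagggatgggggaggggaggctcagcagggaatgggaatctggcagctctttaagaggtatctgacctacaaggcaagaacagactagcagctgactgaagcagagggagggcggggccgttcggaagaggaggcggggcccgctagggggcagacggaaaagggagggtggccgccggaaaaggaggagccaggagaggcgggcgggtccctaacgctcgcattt
Ctss: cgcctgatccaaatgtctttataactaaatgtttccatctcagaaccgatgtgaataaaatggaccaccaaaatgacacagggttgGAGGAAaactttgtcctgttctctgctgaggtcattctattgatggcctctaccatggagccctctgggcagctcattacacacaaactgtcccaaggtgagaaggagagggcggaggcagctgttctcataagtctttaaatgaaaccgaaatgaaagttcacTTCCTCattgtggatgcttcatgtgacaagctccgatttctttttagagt
Ctsl: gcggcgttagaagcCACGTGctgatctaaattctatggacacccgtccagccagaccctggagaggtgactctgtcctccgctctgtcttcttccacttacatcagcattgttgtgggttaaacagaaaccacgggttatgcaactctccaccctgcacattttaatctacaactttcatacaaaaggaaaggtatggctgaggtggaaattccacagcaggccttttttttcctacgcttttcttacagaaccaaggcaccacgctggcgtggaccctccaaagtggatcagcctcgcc
Cst7: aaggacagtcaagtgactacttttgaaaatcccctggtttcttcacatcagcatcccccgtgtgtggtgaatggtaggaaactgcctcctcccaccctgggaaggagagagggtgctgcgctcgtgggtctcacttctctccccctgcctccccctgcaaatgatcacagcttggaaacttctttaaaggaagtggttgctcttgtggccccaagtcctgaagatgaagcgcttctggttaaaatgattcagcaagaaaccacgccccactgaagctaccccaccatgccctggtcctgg

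In Cst3 the motif GAGGAA begins 230 bases before the start. In Ctss it begins 164 bases before the start, and its reverse complement begins at the start itself. In Ctsl the motif CACGTG begins 236 bases before the start, and the Cst7 window holds neither motif. Cst3, Ctsc and Ctss share GAGGAA. Cst3 and the main Ctsc probe set were called higher in batch 3 minus batch 2, and Ctss was not called there. A match is a string of letters and does not show a binding site.

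Between genotypes no member passed the test. Cst7, the cystatin F gene, and Ctsl came nearest. Both stood higher in Il10_KO and DKO than in WT, by 0.50 to 0.74 on the log2 scale. With batch in the model Ctsz (1417868_a_at) came close to them in Ebi3_KO minus WT, at -0.47 ± 0.14 (limma, unadjusted p = 0.00427, adjusted p = 0.910). Limma called 0 of the 20 probe sets in Ebi3_KO minus WT, in Il10_KO minus WT and in DKO minus WT. Over all probe sets 0.0032%, 0.0064% and 0.0096% were called in those comparisons (0.0032%, 0.0384% and 0.0416% with batch in the model). At an unadjusted p under 0.05 stood 0, 1 and 0 member probe sets, where 1.41%, 1.98% and 2.14% of all probe sets did. With batch in the model these were 2, 3 and 2 member probe sets, where 5.31%, 7.68% and 8.25% of all probe sets did. The 3 comparisons share the WT arrays, so their values are given side by side only.

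Cst7 read 2580.7, 2964.0 and 1423.3 in Ebi3_KO, in batches 1, 2 and 3. It read 3111.6, 3602.5 and 2877.3 in Il10_KO, and 2328.4, 3309.6 and 2578.4 in DKO. In WT it read 2253.7, 1904.7 and 1609.7. All 3 Il10_KO arrays and all 3 DKO arrays lay above the WT arrays, and Ebi3_KO overlapped with each of the other genotypes. Such a separation upward was seen in 1 of 20 member probe sets in each of those comparisons, against 3.14% of all probe sets in Il10_KO and 3.2% in DKO, and in 0 of 20 in Ebi3_KO (1.96%). Separation downward was seen in 0 of 20 in Il10_KO (2.74% of all probe sets) and in DKO (2.97%).

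The Cst7 difference from WT was 0.22 ± 0.27 in Ebi3_KO, 0.73 ± 0.27 in Il10_KO and 0.50 ± 0.27 in DKO, each with an adjusted p of 1. Within batches 1, 2 and 3 it was 0.19, 0.63 and -0.18 in Ebi3_KO, 0.46, 0.91 and 0.83 in Il10_KO, and 0.05, 0.79 and 0.67 in DKO. With batch in the model the Il10_KO value had an SE of 0.19, an unadjusted p of 0.00168 and an adjusted p of 0.376, and the DKO value an unadjusted p of 0.0183 and an adjusted p of 0.535. The mean signals were 2322.7 ± 802 in Ebi3_KO, 3197.1 ± 370 in Il10_KO, 2738.8 ± 510 in DKO and 1922.7 ± 322 in WT (SD, n = 3 each). Without batch 3 the Cst7 difference was 0.69 in Il10_KO and 0.42 in DKO. Leaving out single arrays, without the batch term, gave 0.01 to 0.53 in Ebi3_KO, 0.61 to 0.85 in Il10_KO and 0.36 to 0.62 in DKO. In order of means, Il10_KO stood highest, then DKO, Ebi3_KO and WT, and each neighbouring pair differed by less than the larger of their SDs. Those SDs also hold the spread between batches. Within each batch Il10_KO stood highest, and the order of the other genotypes varied.

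The averaged Il10 difference, the mean of Il10_KO minus WT and DKO minus Ebi3_KO, was 0.51 ± 0.19 for Cst7 (adjusted p = 1; 0.51 ± 0.13 and adjusted p = 0.333 with batch in the model). By batch it was 0.16, 0.54 and 0.84 in batches 1, 2 and 3. The difference for Cst7 between those 2 contrasts, the interaction, was -0.45 ± 0.27 with batch in the model (adjusted p = 1), and -0.69 to -0.27 there with single arrays left out. The main probe set of Ctsc, whose product cystatin F inhibits, overlapped between all genotypes. It averaged 6192.7 ± 1470 in Ebi3_KO, 6564.9 ± 2520 in Il10_KO and 6991.1 ± 2720 in DKO, against 6857.1 ± 2010 in WT (SD, n = 3 each).

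Ctsl, by its main probe set, read 795.5, 1573.2 and 793.5 in Ebi3_KO in batches 1, 2 and 3. It read 1133.6, 1589.8 and 1318.0 in Il10_KO, and 1005.9, 1281.2 and 1176.6 in DKO. In WT it read 472.1, 1339.5 and 783.7. The ranges overlapped in all comparisons with WT, and the WT array of batch 2 lay above all 3 DKO arrays and 2 of the 3 Il10_KO arrays. The difference from WT was 0.33 ± 0.36 in Ebi3_KO, 0.74 ± 0.36 in Il10_KO and 0.52 ± 0.36 in DKO, each with an adjusted p of 1. Within batches 1, 2 and 3 it was 1.23, 0.24 and 0.74 in Il10_KO and 1.06, -0.06 and 0.57 in DKO. With batch in the model the Il10_KO value had an SE of 0.21, an unadjusted p of 0.00370 and an adjusted p of 0.447. Without batch 3 the Ctsl difference was 0.74 in Il10_KO. Leaving out single arrays, without the batch term, gave -0.04 to 0.70 in Ebi3_KO, 0.37 to 1.11 in Il10_KO and 0.16 to 0.89 in DKO. The other Ctsl probe set (1457724_at) was near background, at 5.0 to 79.5.

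**Figure D4:**
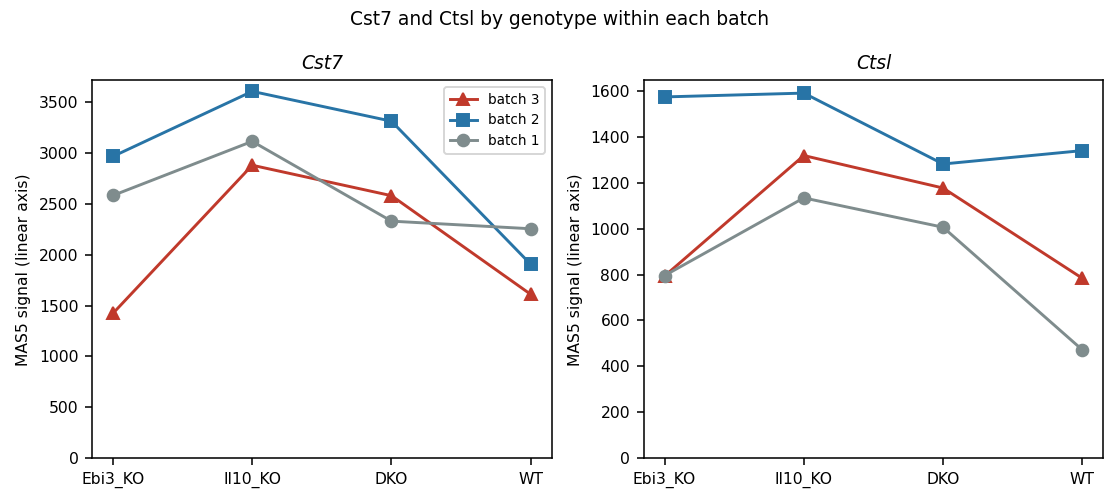
MAS5 signal (linear axis) of Cst7 and of the main Ctsl probe set by genotype, with 1 line for each batch. For Cst7 the Il10_KO array is the highest of its batch in all 3 batches (3111.6, 3602.5 and 2877.3); for Ctsl it is too (1133.6, 1589.8 and 1318.0).

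Marker levels stood beside these values. Of 7 CD8 T and NK cell markers 6 were above 0 in Il10_KO minus WT (median 0.41) and 4 in DKO minus WT (median 0.34), with 0 called. Their mean log2 level lay at 7.16 to 7.75 in Ebi3_KO, 7.42 to 8.73 in Il10_KO and 7.30 to 8.70 in DKO, against 6.72 to 8.37 in WT. Their summed signals were 1087.4 to 2198.6, 1203.6 to 3800.0 and 1201.8 to 3724.4 in the 3 knockouts, against 821.0 to 2963.8 in WT, and Klrk1 and Ncr1 were as low as 6.5 and 11.1. Over the 12 arrays Cst7 correlated with these markers at r = -0.063, and at r = 0.909 with batch means removed, both a description. MHC class II genes had 10 of 10 members above 0 in Il10_KO minus WT (median 0.56, beside -0.001 over all probe sets), 7 of 10 in DKO (0.30) and 9 of 10 in Ebi3_KO (0.17), with 0 called. Ctsl correlated with them at r = -0.072, and at r = 0.873 with batch means removed. Neutrophil markers lay further from WT than either list, with 0 of 8 above 0 in Ebi3_KO (median -1.27), 0 of 8 in Il10_KO (-0.88) and 3 of 8 in DKO (-0.35). In the interaction 8 of 8 were above 0 (median 1.66), with 0 called in any of these contrasts. Their summed signals were 1275.0 to 5209.0 in Ebi3_KO, 1649.7 to 12566.6 in Il10_KO and 2461.9 to 16039.9 in DKO, against 2909.6 to 14321.2 in WT. With batch means removed they correlated with Cst7 at r = -0.038 and with Ctsl at r = -0.392. Dendritic cell markers were above 0 for 4 of 7 in Ebi3_KO (median 0.04), 7 of 7 in Il10_KO (0.31) and 5 of 7 in DKO (0.25), with 0 called, and correlated with Cst7 at r = 0.714 with batch means removed. Macrophage and monocyte markers were above 0 for 6, 5 and 6 of 8 in Ebi3_KO, Il10_KO and DKO (medians 0.16, 0.24 and 0.24), with 0 called. With batch means removed they correlated with Ctsl at r = 0.712 and with Cst7 at r = 0.431. B cell markers were above 0 for 1, 4 and 2 of 6 in that order (medians -0.34, 0.12 and -0.26), with 0 called. Their r with batch means removed was 0.608 for Ctsl and 0.29 for Cst7. Plasma cell markers were above 0 for 3, 4 and 4 of 5, with 0 called. The part of these cells in the Cst7 and Ctsl values was not tested.

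In the averaged Il10 and averaged Ebi3 differences 1 of 5 Ctsb probe sets and 2 of 3 of Ctsz also had unadjusted p-values under 0.05 once batch was in the model. In the interaction the dim Ctsc probe set 1446834_at did (0.86 ± 0.40, unadjusted p = 0.0497). None passed the adjusted test. One Ctsb probe set (1448732_at) read 1264.1, 660.1 and 1726.8 in Ebi3_KO, 1895.4, 876.3 and 3109.0 in Il10_KO, and 1631.1, 927.1 and 2146.0 in DKO, in batches 1, 2 and 3. It read 1822.0, 676.4 and 1786.4 in WT, so the genotypes overlapped. Its averaged Il10 difference was 0.39 ± 0.12 with batch in the model (unadjusted p = 0.00539, adjusted p = 0.418), and 0.21, 0.42 and 0.55 in batches 1, 2 and 3. With single arrays left out it ran from 0.16 to 0.64 without the batch term, and from 0.32 to 0.48 with batch in the model. The other 4 Ctsb probe sets, the brightest included, had unadjusted p-values of 0.107 to 0.664 in that fit. The averaged Ebi3 difference, the mean of Ebi3_KO minus WT and DKO minus Il10_KO, was -0.28 ± 0.10 for Ctsz by 1417868_a_at and -0.36 ± 0.14 by 1417869_s_at with batch in the model. Both had an adjusted p of 0.994, with unadjusted p-values of 0.012 and 0.021. Both were below 0 in all 3 batches. With single arrays left out they ran from -0.42 to -0.13 and from -0.57 to -0.20 without the batch term. The ranges were -0.33 to -0.23 and -0.45 to -0.24 with batch in the model. The other Ctsz probe set, 1417870_x_at, gave -0.29, 0.08 and -0.09 in batches 1, 2 and 3 (unadjusted p = 0.480 in that fit), so the probe sets differ here. Ctsz, by 1417868_a_at, read 1942.1, 1303.7 and 2454.4 in Ebi3_KO, 2349.1, 1548.8 and 3417.5 in Il10_KO and 2505.7, 1413.9 and 2892.8 in DKO, against 2877.5, 1883.0 and 3074.8 in WT. In Ebi3_KO minus WT that probe set gave -0.56, -0.52 and -0.32 within batches 1, 2 and 3. With batch in the model 1417869_s_at gave -0.34 ± 0.20 there and 1417870_x_at -0.03 ± 0.19.

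In Ebi3_KO 2 probe sets lay below WT on all arrays. Ctsw read 1999.9, 2069.7 and 1667.6 in Ebi3_KO, against 3258.9, 2469.8 and 2130.0 in WT, with no overlap and with within-batch differences of -0.70, -0.25 and -0.35. It read 2499.4, 2343.2 and 2727.9 in Il10_KO and 2654.3, 1828.9 and 3326.3 in DKO, which both overlapped with WT. The dim Ctsc probe set 1437939_s_at also lay lower in Ebi3_KO without overlap, and 2.21% of all probe sets did so. Neither was called in Ebi3_KO minus WT. There Ctsw differed by -0.43 ± 0.20 with batch in the model (unadjusted p = 0.0497, adjusted p = 0.910).

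Over the 20 probe sets 6 were above 0 in Ebi3_KO minus WT (median -0.13), 12 in Il10_KO minus WT (0.07) and 14 in DKO minus WT (0.11). The medians over all probe sets were -0.03, -0.001 and 0.01. With single arrays left out, without the batch term, the counts ran from 4 to 14 in Ebi3_KO, 4 to 18 in Il10_KO and 5 to 19 in DKO. The medians then ran from -0.35 to 0.09, -0.28 to 0.32 and -0.26 to 0.30, so all 3 changed sign. With batch in the model they ran from -0.19 to -0.02, -0.15 to 0.23 and -0.01 to 0.14 in the same order. Il10_KO and DKO thus give no stable direction in either model. In Ebi3_KO the median stayed below 0 only with batch in the model, where 4 to 8 of 20 were above 0. In the averaged Il10 difference 17 of 20 were above 0 (median 0.11, beside 0.02 over all probe sets), but 8 of 20 without batch 3. With single arrays left out 8 to 19 were above 0 without the batch term (median -0.05 to 0.24). With batch in the model 13 to 19 were (median 0.05 to 0.18). No member of the lists of other cysteine cathepsins, other lysosomal peptidases, other inhibitors, lysosome biogenesis, MHC class II or cytotoxic granule genes was called in any knockout against WT, with or without batch in the model. Within the averaged Il10, averaged Ebi3 and interaction contrasts 0 of 20 member probe sets were called, beside 0.0128%, 0.0032% and 0.0% of all probe sets (0.064%, 0.0064% and 0.0% with batch in the model).

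**Figure D5:**
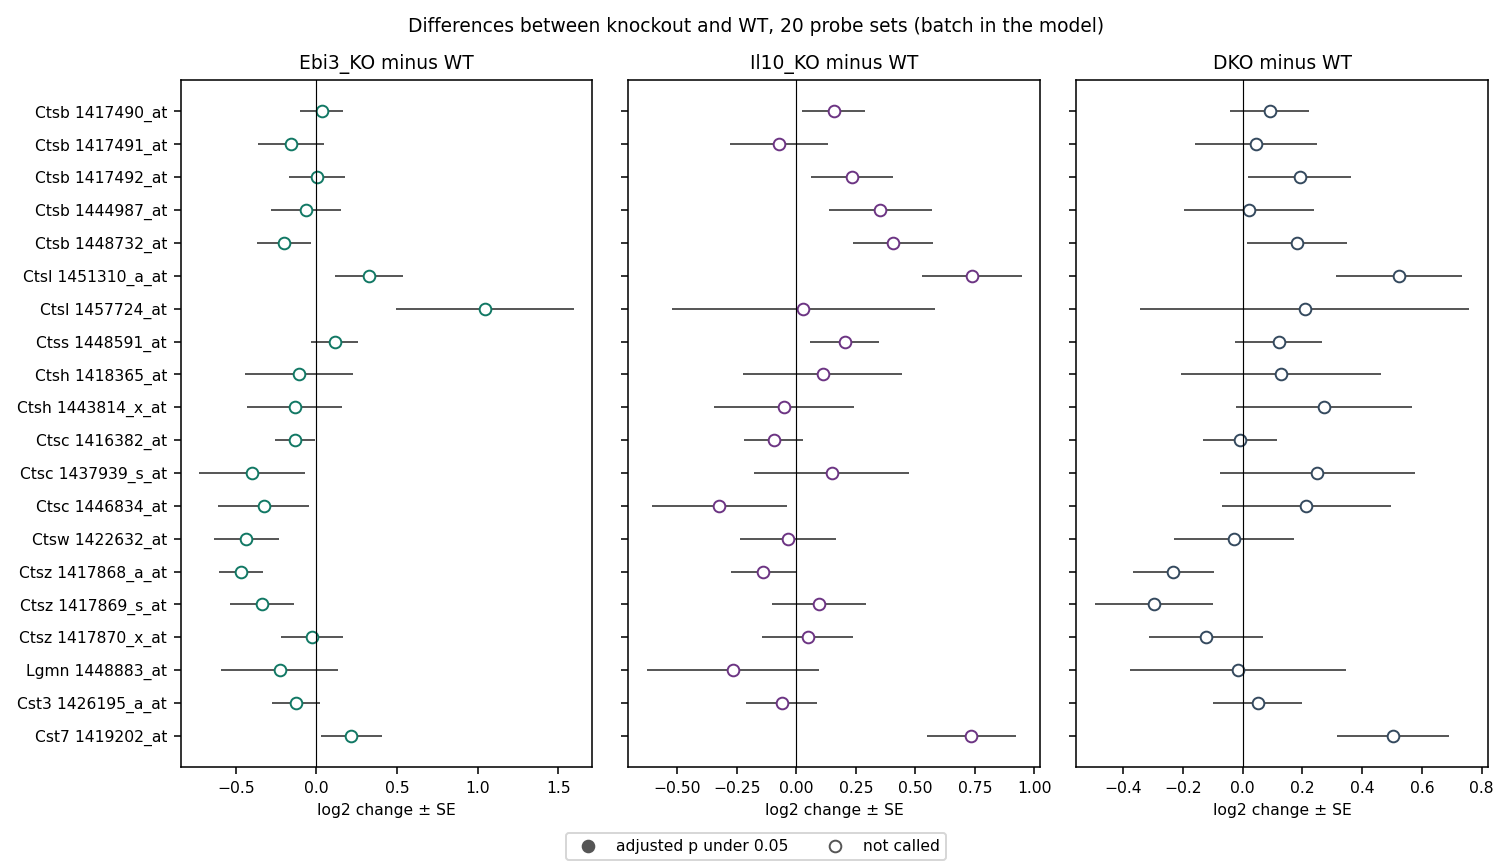
Log2 differences of each knockout from WT (x axis, ± SE, batch in the model) for the 20 probe sets (rows); open points did not pass an adjusted p of 0.05, and no point passed. Cst7 lies at 0.73 and the main Ctsl probe set at 0.74 in Il10_KO.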

How the data were processed

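RNA of 12 Treg samples was measured on Affymetrix mouse arrays, labelled by a 2-cycle protocol per the labels' protocols. Software was MAS5 and Partek 6.4, per the submitters' processing notes. The deposited values are natural log values of the MAS5 signal plus 20. This scale was read from the values: all signals below 200 were multiples of 0.1 within 0.005, and the mean trimmed by 2% at each end was 500.003 to 500.004 on every array. They were divided by the natural log of 2, with no further normalization.

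Of 45101 probe sets 64 controls were left out, and 31235 were tested because 3 or more arrays placed them at or above the 40th percentile of that array (13802 were not). Array annotation gave 34945 probe sets 1 symbol, of which 34741 matched RefSeq, 932 several and 9160 none. Genotypes were fitted on all arrays with limma 3.58.1 in R 4.3.3 (lmFit, eBayes with trend, 8 residual degrees of freedom), and batches with genotype in the model. Adjusted p-values are Benjamini-Hochberg values over every tested probe set. The fit was also run on simulated data with known changes. Recovery of most of the larger changes was required only of the genotype fit with batch in the model. The number of arrays limits the precision.

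Replicate numbers are the labelled batches. With genotype means removed, 18 same-number pairs of arrays correlated at 0.325 to 0.664 and different numbers at -0.531 to -0.0204, so the numbers pair the samples. The alternatives were batch as a fixed or random block, another offset, no filter, quantile normalization, no variance trend, genotype left out of the batch fit, and single arrays or batches left out; batch together with a left-out array or batch was added after seeing the data. The named genes are every member, the brightest probe set standing for a gene where 1 was needed, and the 3 genes most correlated with it. Members and lists were chosen with earlier results of these data known.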

Additional observations from a re-analysis of the deposited data

Results flagged for a closer look

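Within each batch the 4 arrays were searched for 1 that stands far from the other 3 (Dixon's test at its 95% critical value). Of 60 groups, 20 probe sets in 3 batches, 3 held such an array, and chance alone marks about 1 group in 20. The Ctsb probe set 1417491_at read 364.4 on the Il10_KO array of batch 1. The Ctsc probe set 1437939_s_at read 93.9 on the WT array of batch 2. The Ctsl probe set 1457724_at read 60.7 on the Ebi3_KO array of batch 1. Both of the last probe sets are dim, and in each case the array named is the highest of its batch.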

How the results depend on the processing

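No member probe set was called in any genotype comparison under any setting, and adding the replicate block changed no member call. It moved the calls over all probe sets: Il10_KO minus WT 12 (4 with batch as a random block) in place of 2, DKO minus WT 13 (10) in place of 3, averaged Il10 difference 20 (16) in place of 4, and averaged Ebi3 difference 2 (2) in place of 1. Ebi3_KO minus WT, with 1, had 0 with signal plus 1 and 0 without batch 2 or 3. Il10_KO and DKO had 0 without batch 2 or 3. The averaged Il10 difference had 2, 2 and 1 without batches 1, 2 and 3, and the averaged Ebi3 difference 0 without batch 2 and 3 without batch 3. With the block and without batch 3, Ebi3_KO had 2, DKO 6 and the averaged Ebi3 difference 14. With single arrays left out and the block, the counts ran from 1 to 8 in Ebi3_KO, 2 to 7 in Il10_KO and 5 to 31 in DKO. They ran from 12 to 33 and 1 to 32 in the averaged Il10 and Ebi3 differences, and 0 to 1 in the interaction. Without the block they ran from 1 to 3 in Ebi3_KO and 3 to 4 in DKO, and stayed at 2 in Il10_KO. The averaged Il10 and Ebi3 differences then had 2 to 3 and 1 to 12, and the interaction 0. The Ctsl difference in Ebi3_KO ran from -0.04 to 0.70 with single arrays left out and no block, and so changed sign. With the block it ran from 0.09 to 0.52 and did not. The cause was not tested.

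Member calls between batches ran, with single arrays left out, from 10 to 14 in batch 3 minus batch 2, 8 to 11 in batch 3 minus batch 1 and 6 to 9 in batch 2 minus batch 1. Quantile normalization gave 13, 10 and 6. The calls of Cst7, Ctss, Lgmn, Ctsc, Ctsb 1417490_at and Ctsz 1417870_x_at were each lost in at least 1 batch comparison under some alternative, and those of the other called members held under all alternatives run. The batch 3 minus batch 2 calls of Ctsc (adjusted p = 0.0666) and Ctsb 1417490_at (0.0982) were among those lost with no variance trend.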
